A study of Mus musculus with 2 samples.

Results

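Il10, Il19, Il20 and Il24 are 4 neighbouring genes that encode cytokines of the IL-10 family. The stretch studied here runs from 132760000 to 132970000 on mouse chromosome 1 (mm9), a length of 210 kb, which holds these 4 genes, with Il10 near 132.92 Mb. Reads were taken when the centre of their fragment fell in the stretch. They numbered 5795 of the 22963959 reads of one GATA3 chromatin immunoprecipitation library and 4732 of the 15561681 reads of the other. Of 65940 GATA3 peaks found in the genome in at least 1 of the libraries, 29 lay in the stretch.

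Both libraries were made with an antibody to GATA3 from CD4+ T cells of C57BL/6 mice, which were naive (CD25-negative, CD62L-positive) at purification. One is labelled TGF-β plus IL-4, and per its protocol the cells were stimulated through CD3 and CD28 (antibodies at 1 µg/ml) in the presence of TGF-β1 (2 ng/ml) and of IL-4 (10 ng/ml). The other has no treatment named, and since a single culture text serves both and includes TGF-β1 without IL-4, it may stand for that condition or for cells given no cytokine. With 1 library per condition and no input library used here, no p-value is given, the differences have no replicate check, and all intervals cover counting error only.

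IL-10 restrains inflammation by acting on macrophages, dendritic cells and T cells, and is made by several kinds of helper T cell, T helper 2 cells and cells cultured with TGF-β and IL-4 among them. IL-19, IL-20 and IL-24 form a subfamily that signals through receptors containing an IL-20 receptor chain, mainly on epithelial cells. Il24, which RefSeq also lists under the older name FISP, is expressed by T helper 2 cells. GATA3 is the zinc-finger factor that directs T helper 2 differentiation and binds DNA at sequences built around the letters GATA.

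In the RefSeq gene table of GRCm38.p6 the order along the chromosome is Fcmr, Il24, Il20, Il19, the long noncoding RNA gene Gm41952, Il10 and Mapkapk2. That table is of another build than the reads, so its positions were not used, and no peak is assigned to a promoter, exon or intron. Peaks are placed by their distance from the rounded Il10 position of 132.92 Mb. Negative distances lie on the side of Il19, Il20 and Il24, and positive ones on the side of Mapkapk2, the gene of a stress-activated protein kinase.

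RefSeq's promoter sequences of GRCm38.p6 matched 2 of the 4 genes, Il20 and Il19. Il10 and Il24 are named only. The 250 bases upstream of each start are shown because they are the regulatory sequence at hand for the cluster, 5′ to 3′ on the gene's strand, with capitals reserved for GATA on either strand. The Il20 sequence lies at chr1:130911297-130911546 and the Il19 sequence at chr1:130940116-130940365, both on the minus strand of GRCm38.p6.
Il20: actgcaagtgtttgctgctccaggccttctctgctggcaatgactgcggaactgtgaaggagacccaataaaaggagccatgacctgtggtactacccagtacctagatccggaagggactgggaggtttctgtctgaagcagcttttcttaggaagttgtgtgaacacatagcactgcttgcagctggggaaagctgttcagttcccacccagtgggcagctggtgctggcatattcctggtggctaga
Il19: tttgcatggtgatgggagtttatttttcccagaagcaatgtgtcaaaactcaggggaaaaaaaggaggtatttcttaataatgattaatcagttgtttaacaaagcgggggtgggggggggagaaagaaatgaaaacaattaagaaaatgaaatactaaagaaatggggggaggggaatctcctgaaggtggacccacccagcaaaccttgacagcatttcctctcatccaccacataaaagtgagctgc
Neither sequence has a capital: GATA occurred 0 times in each on either strand. GATA occurred in 53.6% of 32851 promoter sequences of this length, and a longer form of it (AGATAA or AGATAG or TGATAA or TGATAG, also on either strand) in 26.5%. This says only that these letters are not in these windows.

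The stretch was among the parts of the genome richest in GATA3 peaks and in GATA3 reads. It had 29 union peaks (peaks of either library merged where they overlapped), against a median of 3 and a maximum of 64 over 11881 windows of 210 kb, 99.6% of which had fewer. Peaks called in both libraries numbered 20, and 99.9% of the windows had fewer. The level was 252 RPM (reads per 1000000 reads on the chromosomes used) where no treatment was named and 304 RPM with TGF-β plus IL-4, where the median window had 72.1 and 70.0 RPM. These levels were above those of 99.6% and 99.7% of windows. The reads were dense between the peaks too. Outside its union peaks the stretch held 8.77 and 9.26 RPM per 10 kb in the 2 libraries, which was 2.26 and 2.50 times the density outside peaks in the genome.

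**Figure D1:**
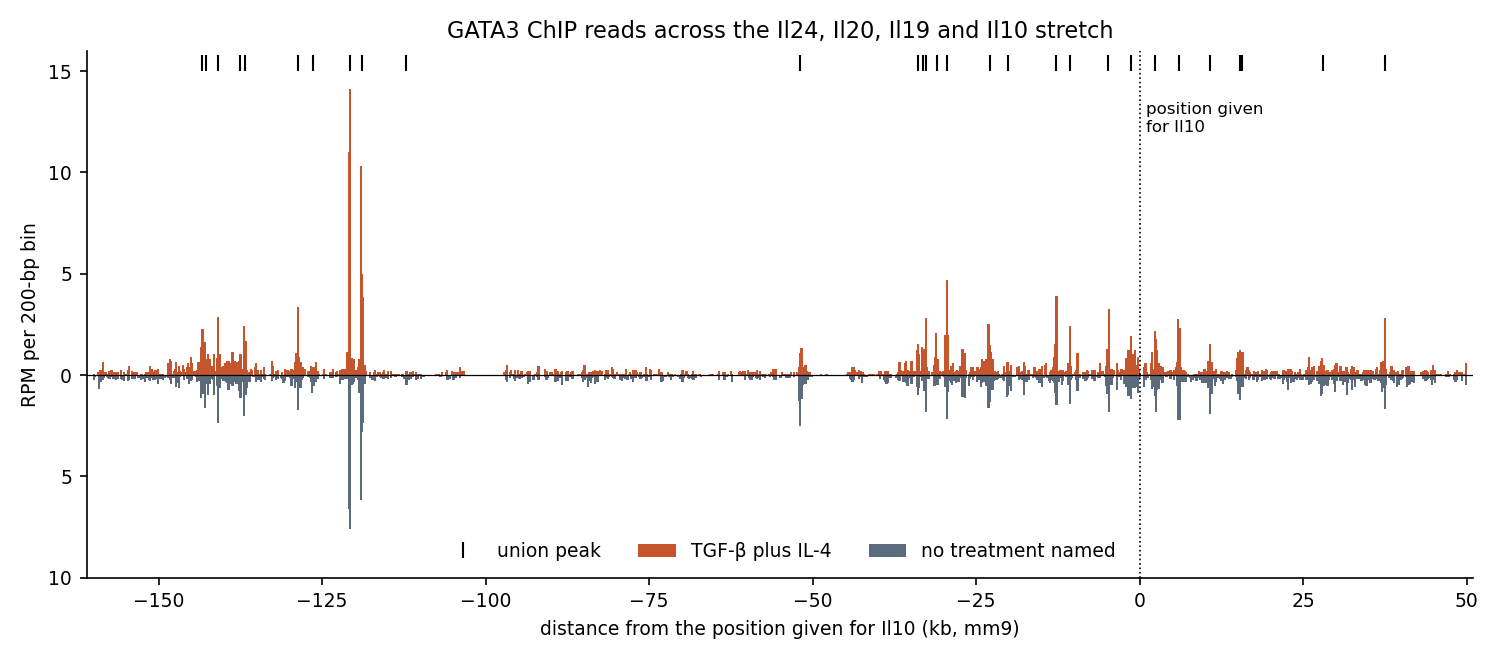
RPM in 200-bp bins (y axis) against the distance from the position given for Il10 in kb (x axis). TGF-β plus IL-4 is drawn upward and the other library downward, and ticks at the top mark the 29 union peaks. The 2 strongest peaks stand near -121 and -119 kb, and a longer row of lower peaks surrounds the Il10 position.

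Along the stretch the peaks fell into 2 groups with an isolated peak between them. A break of at least 15 kb without a peak, a value chosen after the peaks were seen, divided them. The first group held 10 peaks from -143.5 to -112.0 kb, on the Il24, Il20 and Il19 side. The isolated peak lay at -51.9 kb. The second group held 18 peaks from -34.1 to 37.6 kb and ran across the Il10 position. Of the 28 neighbouring pairs of peaks, 11 were less than 2 kb apart. The 59.9 kb between the first group and the isolated peak had 4.57 RPM per 10 kb with no treatment named and 3.94 with TGF-β plus IL-4, close to the 4.22 of the covered genome in either library. The longest run without a fragment centre in either library was 3.26 kb, from -47.9 to -44.6 kb. Reads there may have been lost to the mapping quality filter, which was not tested.

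The 2 strongest peaks were far above the rest of the stretch and higher with TGF-β plus IL-4. The first, from 132799031 to 132799440 (-120.8 kb), held 334 reads (14.5 RPM) with no treatment named and 397 reads (25.5 RPM) with TGF-β plus IL-4. Its ratio of RPM was 1.75 (exact 95% interval 1.51 to 2.03), where every ratio has TGF-β plus IL-4 as the numerator. By RPM averaged over the libraries it ranked 138 of the 65940 union peaks. The second, from 132800781 to 132801340 (-118.9 kb), held 256 reads (11.1 RPM) and 288 reads (18.5 RPM), a ratio of 1.66 (1.40 to 1.97), and ranked 434. Both peaks kept the place of their summits in the 2 libraries. The summit of the first lay at the same 10-bp step in both, and that of the second differed by 10 bp. The summits were 1690 bp apart in one library and 1700 bp in the other. The second peak had a lower second maximum on its Il10-facing side in both libraries. With no treatment named, the coverage went from 5.05 fragments per 1000000 reads at the summit down to 1.09 and up again to 2.92 at -118.80 kb. With TGF-β plus IL-4 it went from 8.03 down to 2.44 and up again to 4.82 at -118.81 kb. Together they held 34.3% of the peak reads of the stretch with no treatment named (Wilson 95% interval 32.1% to 36.6%) and 37.8% with TGF-β plus IL-4 (35.6% to 40%). The weaker of them had 2.81 times the RPM of the third strongest peak. These files keep 1 read per position and strand, and at the first peak reads filled 40.7% and 48.4% of these places in the 2 libraries. What this did to the ratio was not tested.

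The other peaks of the first group were lower and spread around them. The peak from 132783041 to 132783340 (-136.8 kb) had 59 reads (2.57 RPM) and 57 reads (3.66 RPM), a ratio of 1.43 whose interval, 0.973 to 2.09, held 1. The peak from 132791121 to 132791510 (-128.7 kb) had 49 reads (2.13 RPM) and 74 reads (4.76 RPM), a ratio of 2.23 (1.53 to 3.27). Next to it, 2.0 kb away, the peak from 132793481 to 132793640 (-126.4 kb) went the other way, with 20 reads (0.871 RPM) and 4 reads (0.257 RPM), a ratio of 0.295 (0.0734 to 0.881). It was called with no treatment named alone, a choice that by itself favours low ratios. With reads moved by 100 bp to the fragment centre in place of 63 bp (a shift of 100 bp), the ratio was 0.544 (0.193 to 1.35), and the interval held 1. Calling at a q under 1e-05, from all reads, with a 5-kb background or with fragments of 200 bp left 0 peaks in the stretch with a ratio of 0.5 or less and an interval below 1. Summed over the 10 peaks of the first group the levels were 37.9 and 61.1 RPM, a ratio of 1.61 (1.47 to 1.77).

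**Figure D2:**
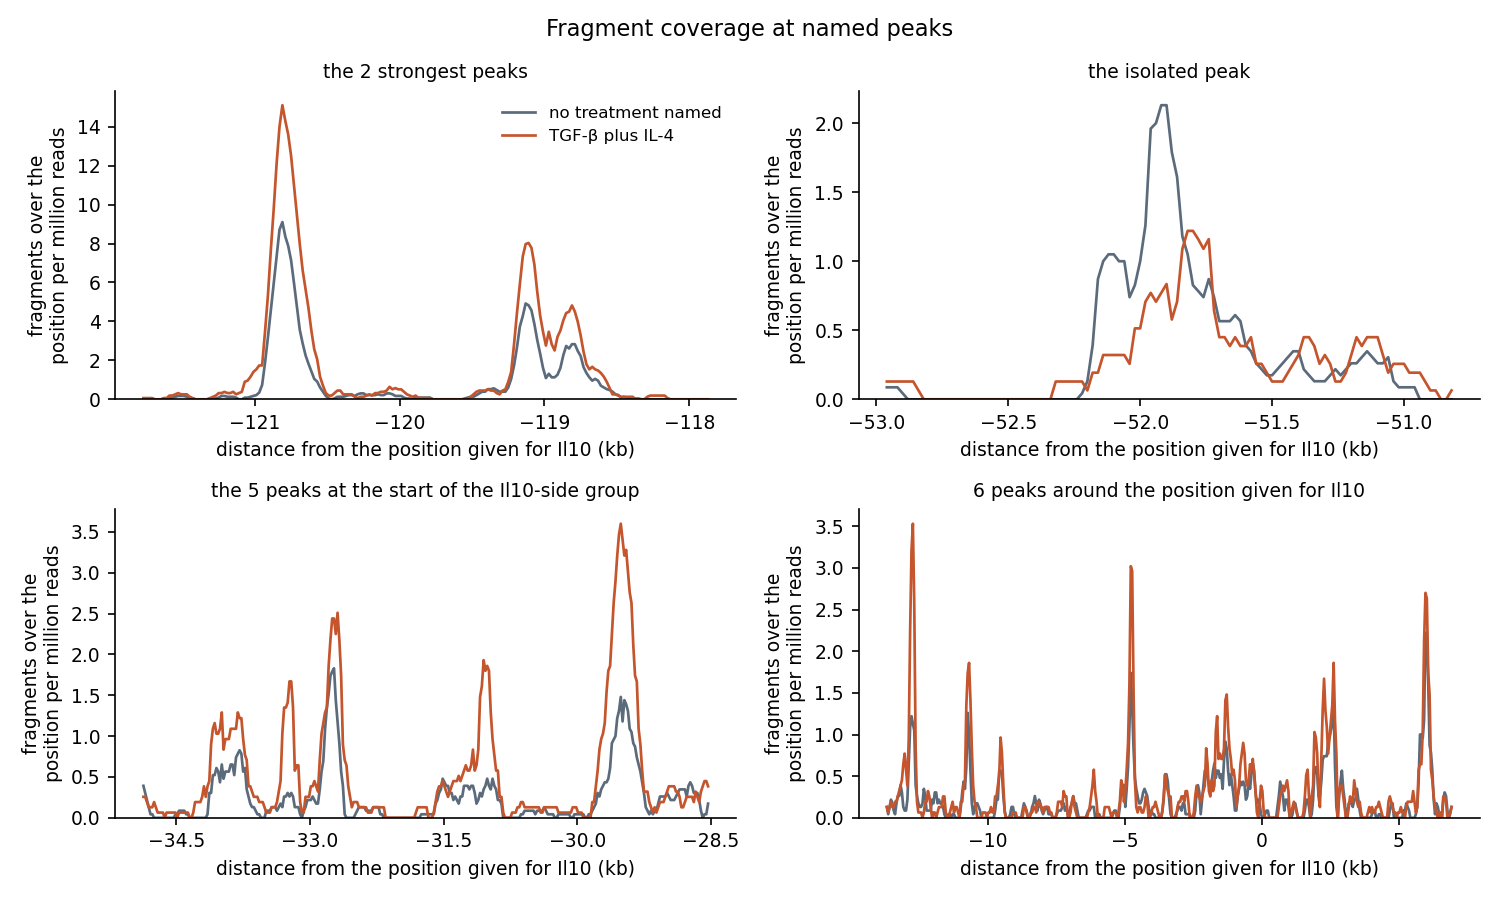
Fragments covering each position per 1000000 reads (y axis) against the distance from the position given for Il10 in kb (x axis), for 4 parts of the stretch with their own y scales. The summits of the 2 strongest peaks lie within 10 bp of each other in the libraries, whereas at the isolated peak the summits lie 100 bp apart.

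The isolated peak, from 132867841 to 132868400 (-51.9 kb), was called in both libraries and was lower with TGF-β plus IL-4. It held 113 reads (4.92 RPM) with no treatment named and 44 reads (2.83 RPM) with TGF-β plus IL-4, a ratio of 0.575 (0.396 to 0.821). The shape also differed. With no treatment named the summit lay at -51.91 kb, where 49 fragments (2.13 per 1000000 reads) overlapped against 13 (0.835 per 1000000) with TGF-β plus IL-4. The TGF-β plus IL-4 summit lay 100 bp nearer to Il10, with 20 fragments (1.29 per 1000000) against 23 (1.00 per 1000000). Each of these positions is the summit of 1 library, a choice that by itself favours that library. In the fixed 200-bp bins the levels were 1.26 and 0.386 RPM at -52.1 kb, and 2.53 and 1.09 RPM at -51.9 kb. At -51.7 kb, nearer to Il10, they were 1.18 and 1.35 RPM. In this peak 71.7% and 65.9% of reads had the top mapping quality, the lowest of all 29 peaks, whose medians were 96.2% and 96.4%. With reads of top mapping quality alone the ratio was 0.525 (0.331 to 0.812).

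The group around Il10 began with 5 peaks within a few kb, 3 of which were past the size rule as higher. Of all union peaks of the genome, 25.3% were. These 5 were set apart after their values were seen, so the count is no feature of this part. To pass the size rule as higher the ratio must reach 2, and to pass as lower it must be 0.5 or less. In either case the interval must leave out 1. The strongest, from 132890321 to 132890690 (-29.5 kb), had 70 reads (3.05 RPM) with no treatment named and 117 reads (7.52 RPM) with TGF-β plus IL-4, a ratio of 2.47 (1.82 to 3.37). It was the third strongest peak of the stretch. The peak from 132886701 to 132886820 (-33.2 kb) rested on 5 reads (0.218 RPM) and 22 reads (1.41 RPM), a ratio of 6.49 with a wide interval of 2.40 to 21.9. The peak from 132888901 to 132889040 (-31.0 kb) had 11 reads (0.479 RPM) and 28 reads (1.80 RPM), a ratio of 3.76 (1.81 to 8.36). The last pair were called with TGF-β plus IL-4 alone, and such a choice by itself favours high ratios. The neighbour at -32.7 kb, between them, had 53 and 56 reads (2.31 and 3.60 RPM) and a ratio of 1.56 (1.05 to 2.31). Adjacent peaks had ratios from 1.56 to 6.49, and the intervals at -33.2 and -32.7 kb did not overlap. Of these, only the peak at -32.7 kb was called in both libraries, so the intervals are not like for like.

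Nearer to Il10 most peaks had ratios above 1. The peak from 132896811 to 132897300 (-22.9 kb) held 75 reads in each library, which with their depths came to 3.27 and 4.82 RPM and a ratio of 1.48 (1.06 to 2.06). The peak at -20.2 kb went the other way, with 29 and 11 reads, a ratio of 0.560 (0.252 to 1.15), and was called with no treatment named alone. It was past the size rule as lower with a shift of 100 bp, at 0.369 (0.147 to 0.817), and under the scaling by shared peaks, at 0.418 (0.189 to 0.862). The peak from 132907121 to 132907370 (-12.8 kb) had 49 reads (2.13 RPM) and 76 reads (4.88 RPM), a ratio of 2.29 (1.58 to 3.35), the highest among the peaks within 20 kb of the Il10 position that were called in both libraries. The peak nearest to the Il10 position, from 132918641 to 132918780 (-1.3 kb), was small. It held 22 reads in each library (0.958 and 1.41 RPM), a ratio of 1.48 (0.779 to 2.79), and was called with TGF-β plus IL-4 alone. The peak at 2.4 kb, from 132922211 to 132922680, had 80 and 73 reads (3.48 and 4.69 RPM) and a ratio of 1.35 (0.967 to 1.87). The peak at 6.0 kb, from 132925851 to 132926160, had 82 and 74 reads (3.57 and 4.76 RPM) and a ratio of 1.33 (0.959 to 1.85). The intervals of these last 3 peaks all held 1, by a small margin at 2.4 and 6.0 kb. Scaling by reads outside peaks gave 1.41 (1.01 to 1.96) at 2.4 kb and 1.39 (1.00 to 1.93) at 6.0 kb. At -1.3 kb the result depended on the shift, and with 100 bp the ratio was 2.12 (1.07 to 4.30), past the size rule as higher.

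On the Mapkapk2 side the peaks thinned out. At 10.7 kb and 15.3 kb the ratios were 0.861 (0.477 to 1.51) and 1.07 (0.640 to 1.77). The small peak from 132935631 to 132935760 (15.7 kb) was past the size rule with 10 reads (0.435 RPM) and 17 reads (1.09 RPM), a ratio of 2.51 (1.08 to 6.13). It was called with TGF-β plus IL-4 alone, a choice that by itself favours high ratios. With reads of top mapping quality alone its interval, 0.925 to 5.48, held 1. The 18 peaks of the group together had 32.1 and 52.6 RPM, a ratio of 1.64 (1.48 to 1.81).

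**Figure D3:**
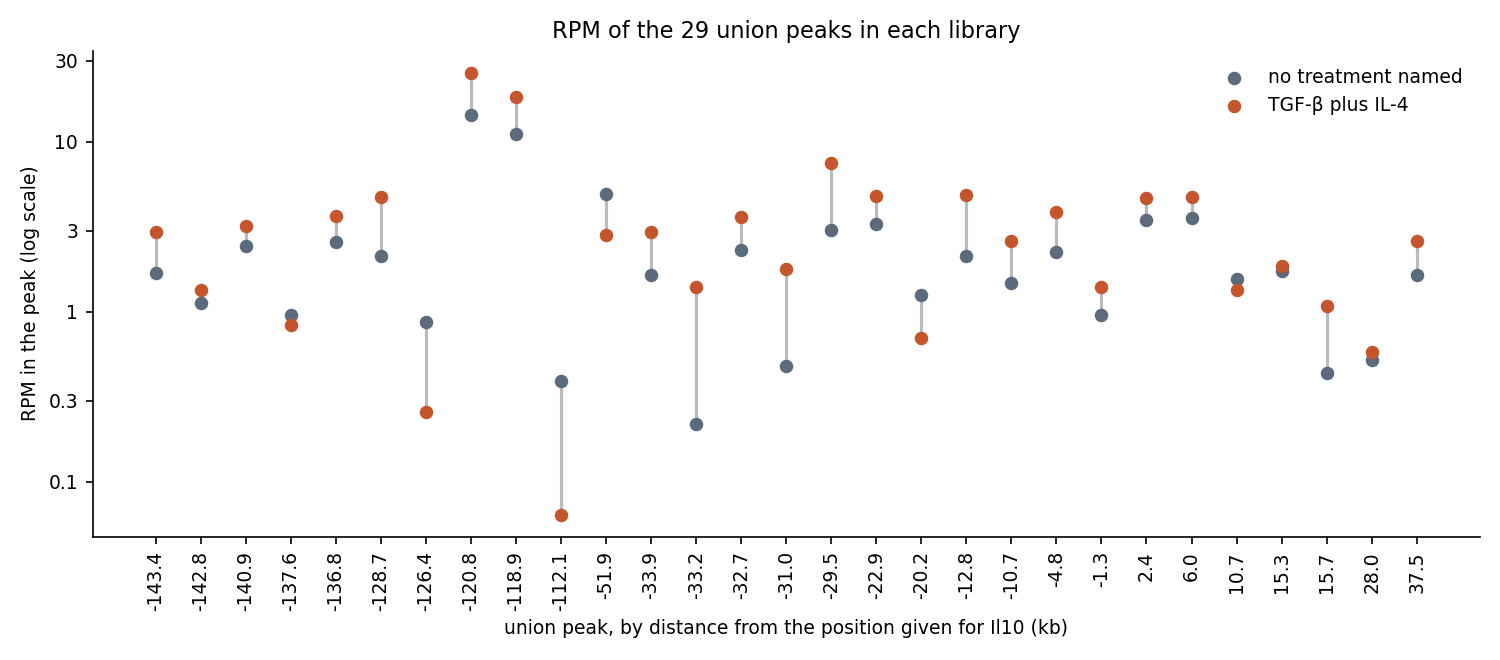
RPM in each of the 29 union peaks (y axis, log scale), ordered by distance from the position given for Il10 in kb (x axis), with a point per library and a line joining the 2 libraries. TGF-β plus IL-4 is the higher point at 23 peaks (79.3%, against 75.4% of all union peaks of the genome) and the lower at 6.

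Over all 29 peaks, RPM was higher with TGF-β plus IL-4 at 23 and lower at 6. The 23 made up 79.3% of the peaks, against 75.4% of all union peaks of the genome. Past the size rule were 6 peaks as higher and 1 as lower. The 6 past it as higher made up 20.7% of the peaks, against 25.3% of all union peaks of the genome. The single lower peak made up 3.45%, against 3.67%. These shares were close to the background, so the number past the rule is no feature of the stretch. The interval lay above 1 at 14 peaks and below 1 at 2, and it held 1 at 13. The median log2 ratio was 0.56, against 0.68 over all union peaks. Over the 20 peaks called in both libraries it was 0.66, against 0.42 over the 25776 such peaks of the genome. Of these 20 peaks, 3 were past the rule as higher (-128.7, -29.5 and -12.8 kb), where 12.9% of such peaks of the genome were. All of these ratios depend on the scaling. Setting the median ratio of the peaks called in both libraries to 1 lowers every log2 ratio by 0.42. Under that scaling 2 peaks of the stretch were higher (-33.2 and -31.0 kb) and 4 lower, and the shares of all union peaks were 11.6% and 8.35%. Both higher ones were called with TGF-β plus IL-4 alone, a choice that by itself favours high ratios. The lower ones at -126.4, -112.1 and -20.2 kb were called with no treatment named alone, which favours low ratios. The 3 higher peaks called in both libraries were no longer past the rule.

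**Figure D4:**
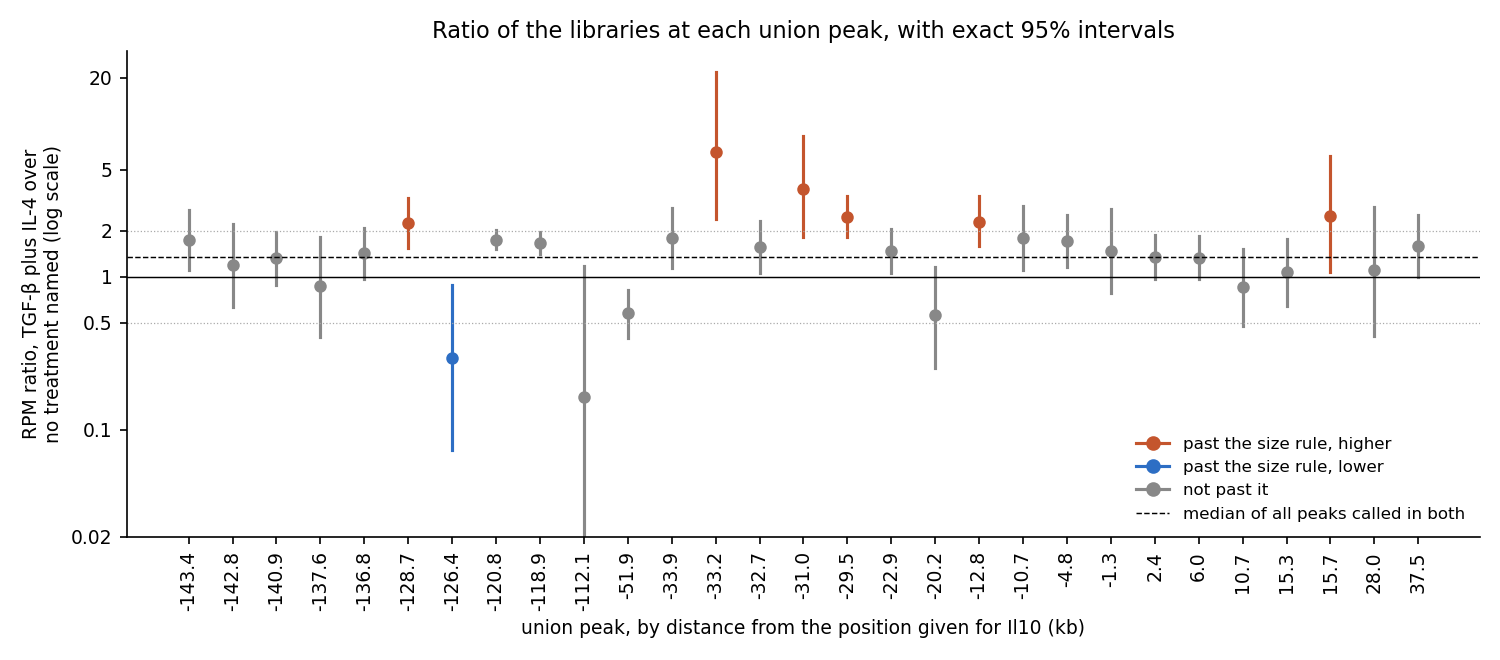
RPM with TGF-β plus IL-4 divided by RPM with no treatment named (y axis, log scale) for each union peak by distance from the position given for Il10 in kb (x axis), with exact 95% intervals as lines and dotted lines at 0.5 and 2. The lowest interval, at -112.1 kb, runs below the axis. The dashed line is the median of 1.34 over all peaks of the genome called in both libraries, and most peaks of the stretch have intervals that hold it.

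Peaks called in both libraries were the strong ones. Called in both were 20 of the 29 peaks (69.0%), against 39.1% of all union peaks, and the median of the mean RPM was 2.31 over the stretch and 0.809 over all. The peaks called with no treatment named alone numbered 4 (13.8%, against 15.7% of all union peaks). They had a mean RPM of 0.228 to 0.985 and ratios from 0.164 to 0.872. The weakest, at -112.1 kb, held 9 reads and 1 read, a ratio of 0.164 (0.00374 to 1.18). The peaks called with TGF-β plus IL-4 alone numbered 5 (17.2%, against 45.2% of all union peaks). They had a mean RPM of 0.550 to 1.19 and ratios from 1.11 to 6.49. A call in 1 library alone by itself favours ratios on the side of that library. Among the 20 shared peaks the summits lay within 50 bp of each other at 18. At the other 2, the isolated peak and the peak at -143.4 kb, they lay 100 bp apart.

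The reads between the peaks differed less between the libraries than those inside them, and not in the same way along the stretch. In the whole stretch the ratio was 1.20 (1.16 to 1.25), which came from 1.56 (1.46 to 1.66) inside the peaks and 1.06 (1.01 to 1.11) outside them. A ratio of 1.20 was not extreme. Over the 11881 windows of 210 kb the median ratio was 1.04 and the 90th percentile 1.31, and 77.7% had a lower ratio than the stretch. Scaled by the median of peaks called in both libraries, the ratio of the whole stretch turned to 0.90 (0.866 to 0.936), while that inside the peaks stayed above 1 at 1.16 (1.09 to 1.24). Of the reads in the stretch, 29.7% lay inside peaks with no treatment named (Wilson interval 28.5% to 30.9%) and 38.3% with TGF-β plus IL-4 (36.9% to 39.7%). The share in union peaks also rose over the whole libraries, from 8.56% with no treatment named to 12.7% with TGF-β plus IL-4. Between the peaks of the first group the ratio was 1.32 (1.18 to 1.47), and between those of the group around Il10 it was 1.02 (0.955 to 1.10). The first of these fell to 0.983 (0.879 to 1.10) under the scaling by shared peaks. In the genome as a whole the ratio was 1.48 inside union peaks, not far from the 1.56 of the stretch, and 0.955 outside them.

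In 10-kb windows the interval of the ratio lay above 1 over the first group of peaks and in the 40 kb before the Il10 position, and below 1 from 20 to 40 kb on the Mapkapk2 side. It lay above 1 in 8 of the 21 windows (38.1%), against 10.7% of all 10-kb windows of the genome with at least 20 reads. It lay below 1 in 3 (14.3%), against 11.2%, a share near the background. The 8 higher windows were those from -150 to -110 kb and from -40 to 0 kb. They held 288 to 648 reads in a library. More reads give a narrower interval, so the shares of the stretch and of all windows are not like for like. The ratio reached 2 in 0 of the 21 windows. The highest ratio was 1.73 (1.47 to 2.02), in the window from -40 to -30 kb with 12.6 and 21.8 RPM. From there the ratios were 1.40, 1.27, 1.33, 1.15, 0.926, 0.778 and 0.828 in the next 7 windows, up to 40 kb. Of the 3 lower windows 1 lay between the groups, from -80 to -70 kb. The other 2, from 20 to 40 kb, were lower with TGF-β plus IL-4, the first with 14.4 and 11.2 RPM, a ratio of 0.778 (0.644 to 0.938), and the second with 16.8 and 13.9 RPM, a ratio of 0.828 (0.698 to 0.981). Both were rich in reads, above 98.7% and 99.3% of all windows with no treatment named. Under the scaling by shared peaks 2 windows were higher and 11 lower, where 1.84% and 40.5% of all windows were. Under scaling by reads outside peaks 9 were higher and 1 lower, where 13.3% and 8.06% of all windows were.

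The turn was seen in the reads outside the peaks. The spans compared next were chosen after the windows were seen. From -40 to 0 kb the reads outside the 11 peaks there came to 12.4 and 15.2 RPM per 10 kb, a ratio of 1.23 (1.12 to 1.35). From 10 to 40 kb, outside the 5 peaks, they came to 13.4 and 10.4 RPM per 10 kb, a ratio of 0.777 (0.694 to 0.870). These densities were well above the 3.88 and 3.71 RPM per 10 kb of the genome outside peaks. Inside the peaks the ratio was 1.87 (1.64 to 2.12) from -40 to 0 kb and 1.27 (0.983 to 1.64) from 10 to 40 kb. The intervals of these 2 spans did not overlap outside the peaks and just met inside them. Because the spans were chosen with the windows known, this is no test of a difference between them. From 0 to 10 kb the ratio was 1.01 (0.818 to 1.24) outside the peaks and 1.34 (1.06 to 1.68) inside them. Under the scaling by shared peaks the ratio outside the peaks was 0.919 (0.839 to 1.01) from -40 to 0 kb and 0.581 (0.518 to 0.650) from 10 to 40 kb. Such a scaling multiplies all spans alike, and under it the span on the Il19 side was not higher. Without an input library, reads from open chromatin and from GATA3 binding cannot be told apart in these spans.

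**Figure D5:**
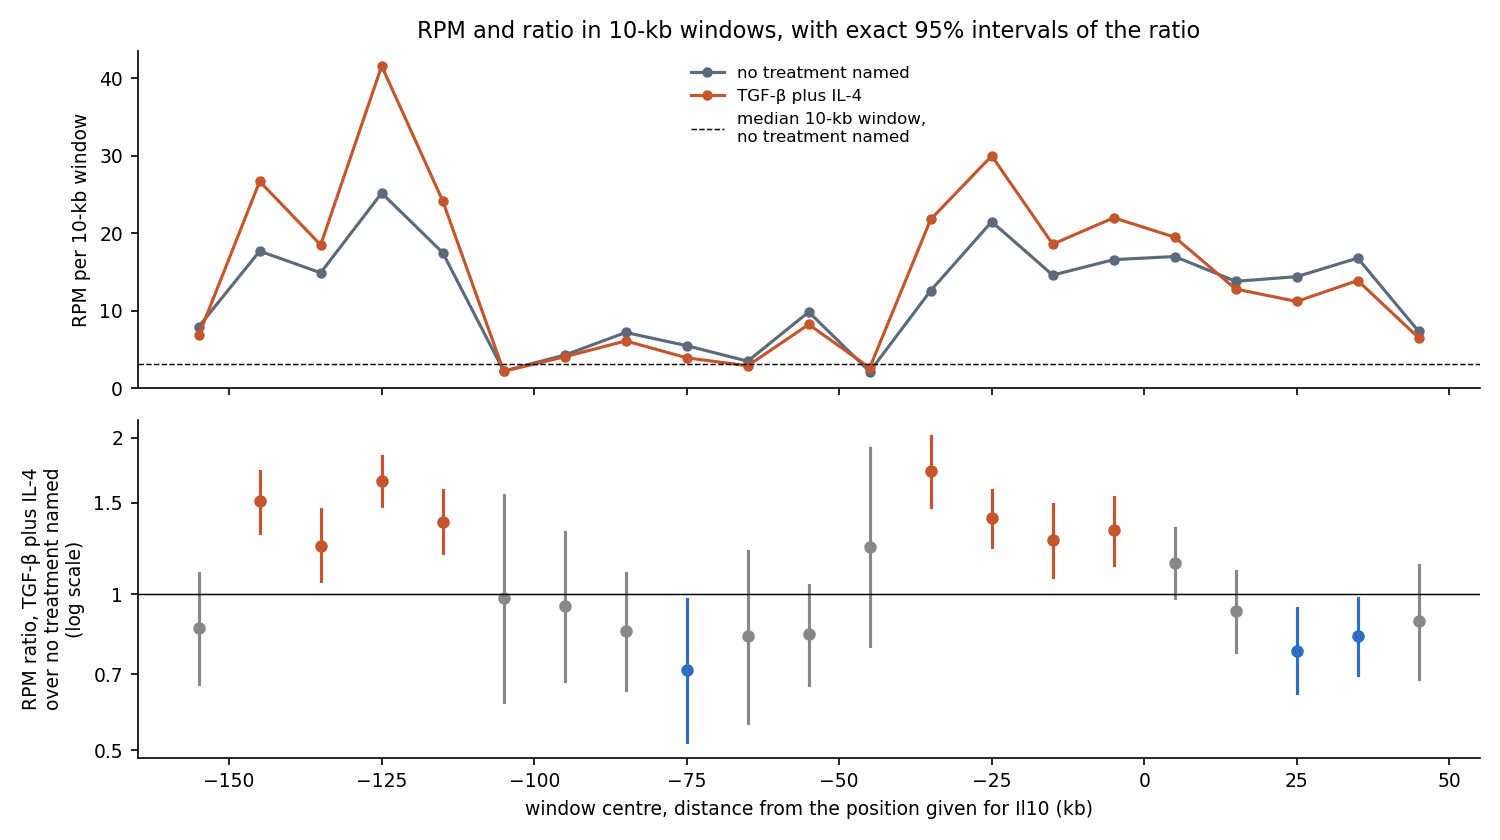
RPM in 10-kb windows for each library (upper y axis) and their ratio with exact 95% intervals (lower y axis, log scale), by distance of the window's centre from the position given for Il10 in kb (x axis). Orange intervals lie above 1, blue below 1 and grey hold 1, and the dashed line is the median window with no treatment named, 3.14 RPM. The ratio falls from 1.73 at -40 to -30 kb to 0.778 at 20 to 30 kb.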

How the data were processed

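Each line of the files the authors deposited is an aligned read of 25 bases with its position, strand and a mapping quality score (11 to 42). CASAVA 1.0, Bowtie2 and mm9 are listed per the submitters' processing notes, without settings. File names state a quality filter and duplicate removal, and 0 duplicates were found.

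Only chromosomes 1 to 19, X and Y entered. Fragment centres (5′ ends moved inwards by 63 bp) were counted in the stretch, in 200-bp bins, in 10-kb windows and in peaks. Peaks were called in both libraries at 15561681 reads: coverage every 10 bp, with fragments of 125 and 130 bp, was set against a Poisson rate (genome or surrounding 10 kb), with q under 0.01 over covered positions, gaps of up to 100 bp merged, and at least 100 bp and 20% of reads on each strand. Union peaks merged overlaps of 1 bp. Ratios carry exact Clopper-Pearson 95% intervals. Tools were scipy 1.17.1, numpy 2.4.6, pandas 2.3.3 and matplotlib 3.10.9 under Python 3.11.15, and the code was tested on simulated data. Peaks described singly were the 10 with the highest mean RPM, those past the size rule and the one nearest to Il10; others named for a count or their place were chosen after their values were seen. The stretch and lists were chosen with earlier results of these data known.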

Additional observations from a re-analysis of the deposited data

How the results depend on the processing

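No paired analysis was possible because each condition has 1 library, so leaving out a replicate was not possible either. Scaling by reads outside union peaks moved the ratio of the stretch from 1.20 to 1.26 and left 1 window lower in place of 3. Scaling by the median of shared peaks turned it to 0.90, moved the ratio inside the peaks from 1.56 to 1.16, and gave 2 peaks higher and 4 lower in place of 6 and 1, and 2 windows higher and 11 lower in place of 8 and 3. Of the 6 higher peaks 2 remained, both called with TGF-β plus IL-4 alone. It also turned the peaks at -142.8 (0.891), -140.9 (0.984), 6.0 (0.995), 15.3 (0.799) and 28.0 kb (0.827), whose intervals held 1 before and after. Reads outside the peaks alone gave 1.06. Top mapping quality alone turned the peaks at 15.3 kb (0.99) and 28.0 kb (0.978), and a shift of 100 bp the one at 15.3 kb (0.961). A ratio of 1.5 in the size rule gave 13 higher and 2 lower peaks, and windows of 20 kb gave 5 higher.

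At a q under 1e-05 the called peaks fell from 24 to 14 with no treatment named, from 26 to 16 with TGF-β plus IL-4 and from 29 to 18 in the union. The lower peak was lost at that q, with all reads, with a 5-kb background and with fragments of 200 bp, each of which gave 0 lower peaks among those called. A shift of 100 bp also took the peak at -126.4 kb out of the rule, at 0.544, and brought in the peak at -1.3 kb as higher, at 2.12, and that at -20.2 kb as lower, at 0.369. Subtracting the background within 10 kb gave 1.60 inside the peaks. Depth limits the peaks with few reads: at 5 against 22 reads the interval spanned 2.40 to 21.9.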
